A study of Homo sapiens with 6 samples.

Results

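Aminoacyl-tRNA synthetases join each amino acid to its tRNA and so supply every codon of every mRNA with its substrate. Most amino acids have a cytosolic enzyme and a separate mitochondrial enzyme, both encoded in the nucleus and both made by cytosolic ribosomes, and the older symbols mark the mitochondrial one with a trailing 2. GARS and KARS each serve both compartments from a single gene, EPRS joins the glutamyl and prolyl enzymes in one chain, and several cytosolic synthetases sit together with scaffold proteins in the multisynthetase complex.

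The genes were chosen by symbol from a list of 36 synthetase genes, 20 cytosolic and 16 mitochondrial. Of these, 31 were in the table of translational efficiency (18 cytosolic and 13 mitochondrial, of 8121 genes) and 33 in the table of ribosome occupancy (19 and 14, of 9570 mRNAs). CARS and SARS2 were in the occupancy table only, and VARS, AARS2 and VARS2 are not analysed here. The data came from HEK293 cells, an established human embryonic kidney line, transfected with control siRNA. There were 3 libraries of ribosome-protected fragments (RPFs), the stretches of mRNA that a ribosome shields from nuclease, and 3 of total RNA from the same lysates. With one line and one treatment, the comparisons are between genes and within mRNAs, and p-values measure only the spread between these replicates.

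Translational efficiency is the ratio of RPFs to total RNA, given for each gene and replicate. Its depth is unknown, since the table holds no counts. Occupancy is the normalised number of in-frame RPFs on each codon, with the replicates combined. Because its values are built from whole reads, the reads of each of the 3 RPF libraries were recovered for all 33 synthetase mRNAs. These had 558226 reads on their coding sequences (CDSs), from 485 for PARS2 to 85600 for EPRS. The libraries carry no replicate number there and are called a, b and c, in rising order of the value of a single read within each mRNA. A letter may therefore mark different libraries in different mRNAs.

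Sequences around the codons on which the within-mRNA results turn are printed here from GENCODE 44 lifted to GRCh37, on the strand of the gene and with the codon in question in capitals. They are the first and second in-frame AUG of GARS, an upstream AUG with its stop codon in TARS2, and the most occupied codon of the 5′UTR of LARS, EPRS and WARS.
GARS first AUG, chr7:30634529-30634558, plus strand: cgcaggctcATGccctctccgcgtccagtg
GARS second AUG, chr7:30634691-30634720, plus strand: cggagcagcATGgacggcgcgggggctgag
TARS2 upstream AUG and stop, chr1:150459896-150459923, plus strand: tttgaggATGTAGgcactggtgtgaagg
LARS 5′UTR, chr5:145562066-145562095, minus strand: gtcattgtcgtgGATttgcacagtcggctg
EPRS 5′UTR, chr1:220219731-220219760, minus strand: actgacaggtggACCagcggactggtggag
WARS 5′UTR, chr14:100828232-100828258, minus strand: gatgaaattGATtctgcagtaaagatg

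The first question was how efficiently the synthetase mRNAs were translated compared with other mRNAs. The cytosolic enzymes ran from FARSB, among the most efficient genes of the table, to QARS, among the least efficient, and the mitochondrial enzymes from IARS2 to HARS2. Against the median of all genes, 15 of the 31 synthetases were higher and 13 lower (limma, FDR 0.05), while 3 passed in neither direction. Over all genes 44.7% were called higher and 44.6% lower, so these shares are near the background. The median over the synthetases was 0.415 and over all genes 0.385.

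FARSB, the beta subunit of phenylalanyl-tRNA synthetase, had efficiencies of 3.39, 3.43 and 3.52. GARS, the glycyl enzyme, had 1.63, 1.56 and 1.48. EPRS, the joined glutamyl and prolyl enzyme, had 1.44, 1.31 and 1.37. These are the 3 most efficient cytosolic synthetases, and no replicate of GARS or EPRS reached any replicate of FARSB. On the log2 scale FARSB lay 3.14 ± 0.05 (SE, n = 3) above the median, with a limma adjusted p of 1.26e-06. DARS, the aspartyl enzyme, followed with a mean of 1.35 ± 0.07 (SD, n = 3) and YARS, the tyrosyl enzyme, with 1.12 ± 0.03. EPRS and DARS differed by less than their SDs.

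At the other end, QARS, the glutaminyl enzyme, had 0.103, 0.0983 and 0.103. FARSA, the alpha subunit of phenylalanyl-tRNA synthetase, had 0.118, 0.119 and 0.116, and MARS, the methionyl enzyme, 0.170, 0.155 and 0.160. The ranges of these 3 genes did not overlap one another. QARS lay -1.82 ± 0.05 (SE, n = 3) from the median on the log2 scale, with a limma adjusted p of 3.32e-06. Only 7.62% of all genes had a value at or below that of QARS. HARS, WARS and KARS, which charge histidine, tryptophan and lysine, were the other cytosolic genes called lower, with means of 0.194, 0.209 and 0.281. IARS, the isoleucyl enzyme, had a mean of 0.379 ± 0.004 (SD, n = 3) and did not differ from the median (limma adjusted p = 0.76).

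Among mitochondrial enzymes, IARS2 had the highest efficiency, with 0.978, 0.935 and 0.984. YARS2 had 0.627, 0.673 and 0.618 and MARS2 0.592, 0.611 and 0.543, so that every replicate of YARS2 was above those of MARS2, the nearest by little. RARS2 was the only other mitochondrial gene called higher, with 0.476 ± 0.004 (SD, n = 3). HARS2 was lowest, with 0.0698, 0.0518 and 0.0850, and only 2.83% of all genes were at or below it. EARS2 had 0.154, 0.127 and 0.139 and LARS2 0.170, 0.146 and 0.181, and these ranges overlapped. PARS2 and WARS2, with means of 0.415 and 0.396, passed in neither direction.

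**Figure D1:**
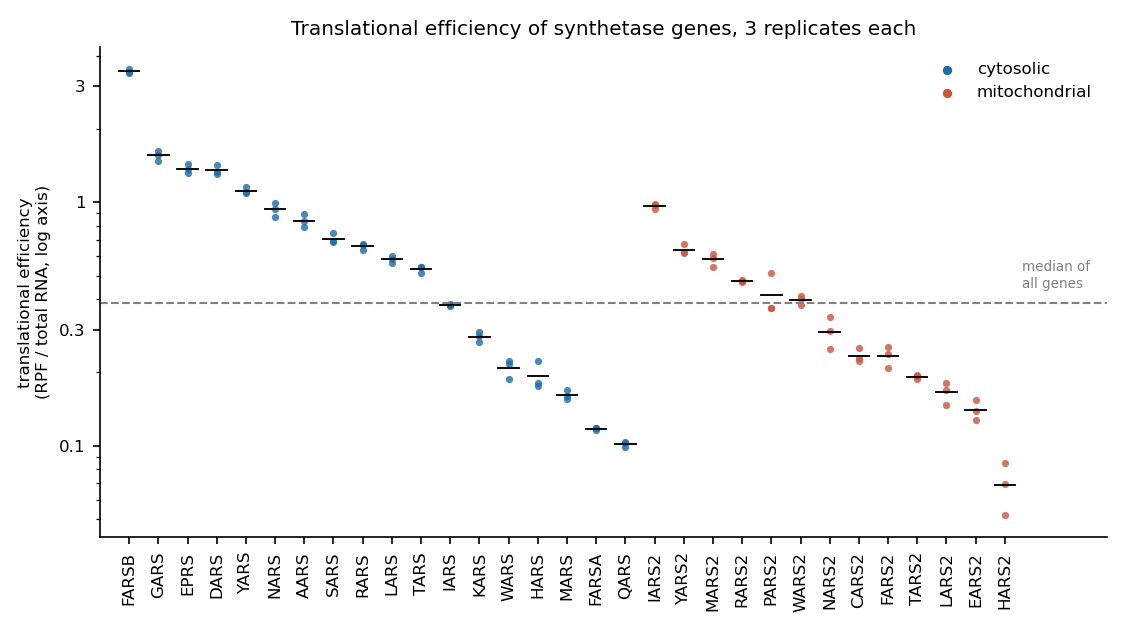
Translational efficiency (RPF over total RNA, log axis) of the 31 synthetase genes, cytosolic in blue and mitochondrial in red, each ordered by its mean. Points are the 3 replicates, black bars the mean and the dashed line the median of all genes, 0.385. FARSB stands highest at 3.45 and HARS2 lowest at 0.0689.

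The trailing 2 in the symbols invites a comparison of the compartments. GARS and KARS, which serve both compartments, are counted here as cytosolic. Of 18 cytosolic genes, 11 were called higher and 6 lower, and of 13 mitochondrial genes, 4 higher and 7 lower, beside 44.7% higher and 44.6% lower over all genes. The cytosolic median was 0.610, 0.619 and 0.632 in the replicates and the mitochondrial median 0.253, 0.336 and 0.294, with no overlap. The cytosolic median was higher by 1.05 ± 0.19 (SD, n = 3) on the log2 scale, or 2.08-fold, in each of the 3 replicates. The two-sided exact sign permutation test gave p = 0.25, the smallest it can give with 3 replicates. The ranges overlapped widely: 5 cytosolic genes exceeded the highest mitochondrial gene, IARS2, and 1 mitochondrial gene, HARS2, was below the lowest cytosolic gene, QARS.

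Where both genes for an amino acid were in the table, they formed 13 pairs, with EPRS and FARS2 each in more than one. In 9 pairs the cytosolic gene was more efficient in every replicate and in 4 the mitochondrial gene, each time by more than the SD of the difference. The exact sign permutation test gave 0.25 for each pair, its smallest value. EPRS exceeded EARS2 9.23-fold and PARS2 3.29-fold. LARS exceeded LARS2 3.38-fold, NARS exceeded NARS2 3.14-fold, TARS exceeded TARS2 2.69-fold and HARS exceeded HARS2 2.61-fold. The smallest differences of this direction were YARS over YARS2, 1.73-fold, and RARS over RARS2, 1.38-fold. The order was turned for methionine, where MARS2 exceeded MARS 3.45-fold, for isoleucine, where IARS2 exceeded IARS 2.51-fold, and for tryptophan, where WARS2 exceeded WARS 1.86-fold. Mitochondrial phenylalanyl-tRNA synthetase is a single chain, FARS2, and its gene lay 14.3-fold below FARSB and 1.90-fold above FARSA.

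FARSA and FARSB make up the cytosolic phenylalanyl enzyme, which holds both subunits in equal number. Their efficiencies differed by 4.76 ± 0.04 (SD, n = 3) on the log2 scale, 27.1-fold, in favour of FARSB (exact sign permutation test, p = 0.25, the smallest possible). CDS occupancy differed less, with a mean of 0.101 per codon for FARSB and 0.0215 for FARSA, a 4.70-fold difference. The value of a single read in the occupancy table falls as the mRNA becomes more abundant, so its inverse gives a relative mRNA level. On that scale, with the median mRNA at 1, FARSA stood at 10.9 and FARSB at 3.17. The footprints themselves were closer: FARSB had 29.2 recovered reads per codon and FARSA 21.2. The ratio was 1.38 ± 0.06 (SD over libraries a, b and c, n = 3). Since the letters are set within each mRNA, this SD may pair different libraries.

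Over all 18 cytosolic synthetases with an efficiency, the highest was 34.0-fold above the lowest in efficiency and 5.03-fold in reads per codon. CDS occupancy, from the same table as the reads, spanned 6.11-fold, so the narrower range was not particular to reads per codon. The part of the table used was not tested. In the 13 mitochondrial synthetases reads per codon had the wider range, 11.4-fold beside 2.58-fold in occupancy. By the SD of log2 values, occupancy was the narrower in the cytosolic list, 0.599 beside 0.614 for reads per codon. CARS has no efficiency and is outside that list. Its 5.62 reads per codon were below those of all 18, of which AARS was lowest with 16.8. The multisynthetase complex, like those 18 genes, had its widest range from lowest to highest in efficiency and its narrowest in reads per codon. Its 8 synthetases are DARS, EPRS, IARS, KARS, LARS, MARS, QARS and RARS. In translational efficiency 4 of the 8 were called higher (50%, beside 44.7% of all genes) and 3 lower (37.5%, beside 44.6%), and the highest, EPRS, was 13.5-fold above the lowest, QARS. Relative mRNA levels ran from 3.02 for DARS to 14.4 for IARS, a 4.77-fold range. Recovered reads per codon ran from 16.8 for MARS to 56.6 for EPRS, a 3.36-fold range. DARS had the lowest mRNA level of the complex and the highest occupancy, 0.132, and IARS the highest mRNA level and the lowest occupancy, 0.0335. Reads per codon are the product of level and occupancy in this table, so these 3 quantities are not independent, and no test was made.

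Of 16 genes listed as partners of the synthetases, 15 were in the table, 8 called higher (53.3%, beside 44.7% of all genes) and 7 lower (46.7%, beside 44.6%). The 3 scaffold proteins of the complex were all higher: EEF1E1 with a mean of 1.25, AIMP1 with 1.21 and AIMP2 with 0.654. EEF1A1 and TUFM, the factors that carry charged tRNA to cytosolic and mitochondrial ribosomes, had 6.41 ± 0.36 and 1.12 ± 0.03 (SD, n = 3). Mitochondria lack a glutaminyl-tRNA synthetase of their own and convert mischarged tRNA with an amidotransferase of the subunits QRSL1, GATB and GATC. QRSL1 had 0.766 and GATC 0.524, both called higher, while GATB had 0.126 and was called lower. MTFMT, which formylates the initiator tRNA of mitochondria, had 0.159 and AARSD1, an editing protein, 0.121, both called lower.

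In CDS occupancy the compartments differed in the same order as in efficiency. DARS was highest of the 33 mRNAs at 0.132, followed by FARSB at 0.101, NARS at 0.0725, WARS at 0.0659 and EPRS at 0.0652. CARS2 was lowest at 0.0205, followed by FARSA at 0.0215, EARS2 at 0.0236, SARS2 at 0.0262 and RARS2 at 0.0283. The cytosolic median was 0.0542, the mitochondrial median 0.0324 and the median of all mRNAs 0.0450. Of the cytosolic mRNAs 13 of 19 exceeded the median of all mRNAs, and of the mitochondrial ones 1 of 14, YARS2. The spread over the 3 libraries was a median of 4.47% of the mean and at most 11.4%, for PARS2. Relative mRNA levels separated the compartments further, with medians of 6.85 and 1.76. TARS was highest at 17.1 and PARS2 lowest at 0.333, and 17 of 19 cytosolic mRNAs exceeded CARS2, the highest mitochondrial mRNA, at 3.14.

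Efficiency and occupancy are both RPFs over total RNA, made by different routes, and their Spearman coefficient was 0.60 over the 31 synthetases and 0.69 over the 6912 genes in both tables. These are correlations across genes, which are not independent replicates, and the 2 measures share their libraries. QARS, WARS, HARS and HARS2 stood much lower in efficiency than in occupancy. Among those genes HARS2 was at percentile 2.88 in efficiency and 39.6 in occupancy, WARS at 26.7 and 61.8, QARS at 7.58 and 36.9, and HARS at 24.1 and 52.3. The reverse held for more genes. IARS2 was at percentile 79.0 in efficiency and 37.3 in occupancy, MARS2 at 64.5 and 26.1, AARS at 75.5 and 38.5, RARS2 at 57.8 and 20.9, GARS at 88.5 and 55.3, and YARS at 82.7 and 51.6. The part of the counted transcript or region in these differences was not tested.

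**Figure D2:**
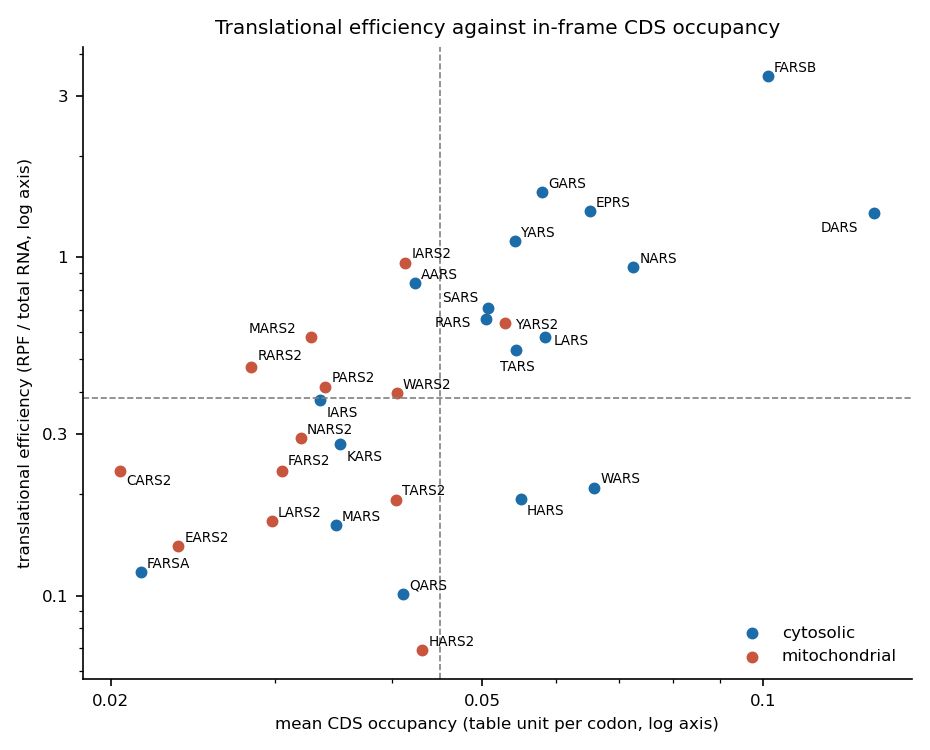
Mean translational efficiency against mean CDS occupancy per codon for the 31 synthetases in both tables, on log axes, with cytosolic genes in blue and mitochondrial genes in red. Dashed lines mark the medians of all genes. HARS2, QARS, HARS and WARS lie low for their occupancy, and FARSB lies highest with an efficiency of 3.45.

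Along the CDS, the first 75 codons were compared with the last 75. The ratio exceeded 1 in 15 of 33 synthetase mRNAs, beside 49% of all mRNAs, and the median ratio was 0.855 beside 0.980. It was above 1 in all 3 libraries for 13 mRNAs and below 1 in all 3 for 15. This agreement depends on the number of reads and was not counted over all mRNAs. The highest ratios were 3.95 for FARSB, 3.19 for SARS2, 3.11 for LARS2, 2.98 for AARS and 1.75 for CARS. The lowest were 0.0761 for GARS, 0.148 for FARS2, 0.259 for EARS2, 0.367 for CARS2 and 0.382 for KARS. In FARSB the ratio was 3.46 to 4.28 over the libraries, and in FARS2 it was 0.130 to 0.159, where the first 75 codons held 36 reads and the last 75 held 245. Of the SARS2 CDS, 82.6% of all 30-base stretches also occur in a readthrough transcript annotated as another gene, so reads on it cannot be told apart.

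**Figure D3:**
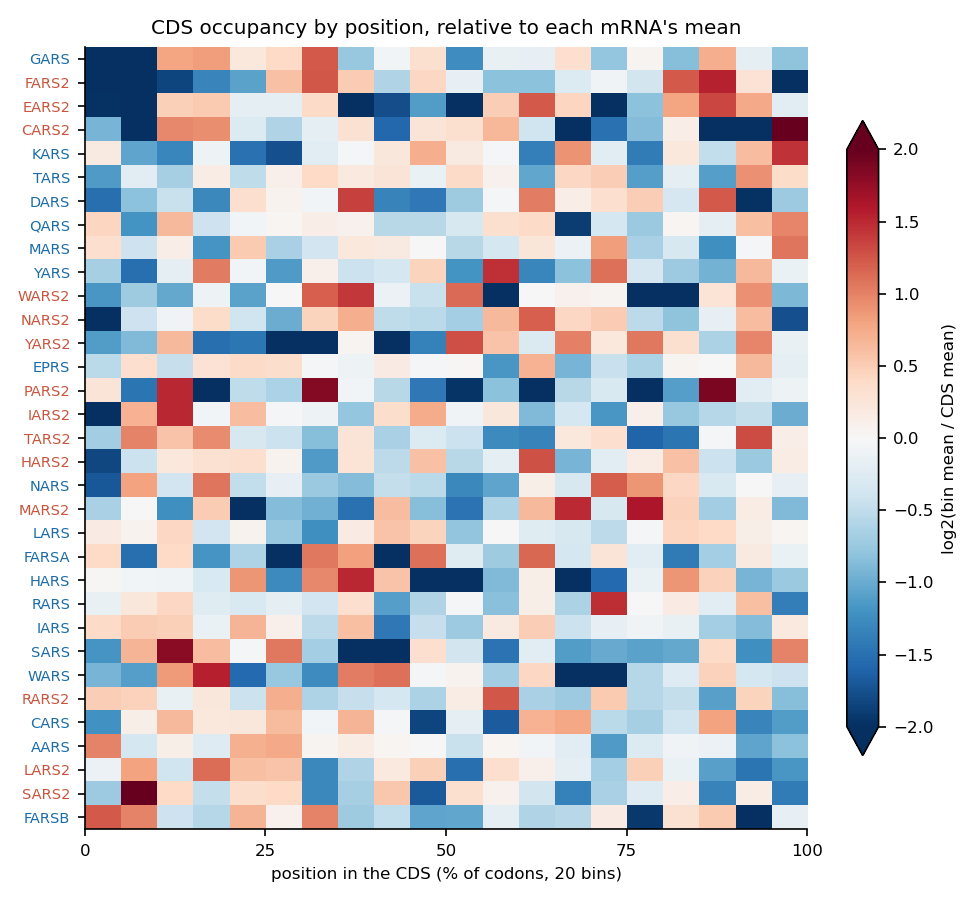
CDS occupancy of the 33 synthetase mRNAs in 20 bins from start to stop, as log2 of the bin mean over the CDS mean, ordered by the ratio of the first to the last 75 codons. Blue is below and red above the mean of the mRNA, and the colour scale ends at -2 and 2. GARS at the top, with a ratio of 0.0761, is dark blue over its first bins, and FARSB at the bottom, with 3.95, is red there.

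GARS makes its mitochondrial form from the first AUG and its cytosolic form from the second in-frame AUG, which is codon 55 of 740. Of 32358 recovered CDS reads, 112 lay on the 54 codons before the second AUG, or 0.346% (95% exact binomial interval 0.285 to 0.416%, counting error only), where an even spread would give 7.30%. The mean occupancy there was 4.35% of that of the rest of the CDS. Library by library it was 4.46%, 4.89% and 3.71%, an SD of 0.60 percentage points (n = 3). Of the 112 reads, 91 lay on the first 14 codons and 21 on the others. Reads stayed few beyond the second AUG: the 18 codons from 55 to 72 held 11 reads, 0.611 per codon, beside 2.07 per codon before the AUG. From codon 73 to 108 the number rose to 77.9 per codon, and over the rest of the CDS it was 46.6. Neither AUG itself held a read. The bases of codons 1 to 54 are 74.1% G or C, those of codons 55 to 72 are 70.4%, and those from codon 55 to the stop are 45.4%. The part of base composition in the low values was not tested.

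**Figure D4:**
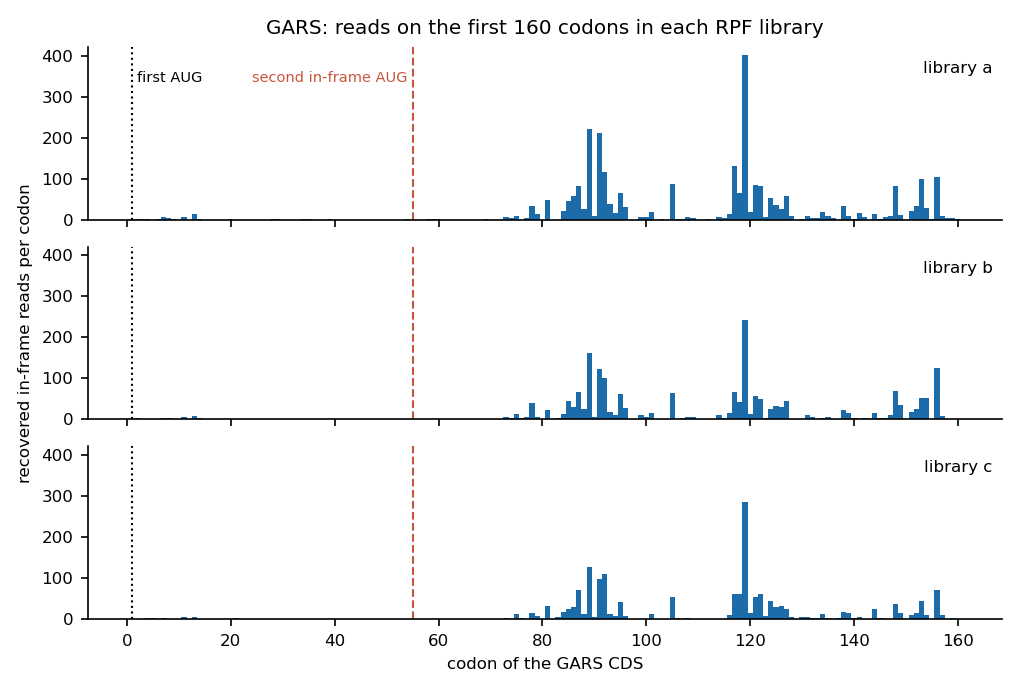
Recovered in-frame reads on each of the first 160 codons of the GARS CDS in RPF libraries a, b and c. The dotted line marks the first AUG and the dashed red line the second in-frame AUG at codon 55. In each library few reads lie before about codon 73, and codon 119 is the highest of those drawn.

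The same 54-codon window was below 100% of the rest of the CDS in most of the 32 synthetase mRNAs with a matched sequence, with a median of 80.4% beside 80.9% over all mRNAs. GARS was lowest, and 2.62% of all mRNAs were at or below it. EARS2 followed at 16.2%, FARS2 at 16.6% and CARS2 at 27.1%. These 3 are mitochondrial enzymes, but others of that compartment were high, with SARS2 at 257.9%, LARS2 at 151.7% and RARS2 at 140.3%. KARS makes its compartment forms by alternative splicing, and the transcript in the table, of 598 codons with the stop, stood at 85.7%.

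The end of the 5′UTR was taken as its last 17 codons in the frame of the CDS, which 27 of the 33 mRNAs are long enough to have. Its occupancy exceeded the median of all mRNAs in 9 of the 27, beside 50% by construction. The count rests on the codons taken: it was 13 with the last 10 codons and 14 with the 5 codons next to the start left out. The number of mRNAs behind these counts can differ from 27. FARSA and KARS, with 5′UTRs of 12 codons, are long enough only for the shorter window. No share is given for these settings. Over the last 17 codons, occupancy exceeded 10% of the CDS mean in 6 mRNAs, or 22.2%, beside 31.7% of all mRNAs. The highest were LARS with 52.5% of the CDS mean, TARS2 with 41.6% and WARS with 29.0%. EPRS followed with 19.1%, NARS with 15.3% and IARS2 with 10.9%. Over the libraries the SD was 5.07 percentage points for LARS, 3.12 for TARS2 and 6.17 for WARS (n = 3 each), so that LARS was above TARS2 by more than either spread. In 5 mRNAs no read was recovered there, FARSB, MARS2, PARS2, RARS2 and YARS2, and 3 reads, the limit a count of 0 allows, would be from 0.605% of the CDS mean for FARSB to 17.3% for PARS2.

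Each of these 5′UTRs had its own pattern. In TARS2, 67 of 69 reads (29, 24 and 14 over libraries a, b and c) lay on 1 codon, the AUG printed above, which stands 8 codons before the start and is followed directly by the stop codon UAG. Of 4 GENCODE transcripts with this start codon, 3 hold these bases. The start codon of the TARS2 CDS itself held 28 reads. In LARS, 291 reads lay on the last 17 codons, of which 132 (55, 44 and 33) were on the GAU codon printed above, 9 codons before the start, and 54 on the GUG next to it. The matched LARS transcript is open in frame for 36 codons before the start, with no AUG in them, and 304 of the 390 reads of the 5′UTR fell there. All 9 GENCODE transcripts with this start codon hold the same bases at the end of the 5′UTR.

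In EPRS 180 reads lay on the last 17 codons, led by the ACC codon printed above, 6 codons before the start, with 56 reads. Its matched 5′UTR is open in frame over all 39 codons, again without an AUG, but the 5′UTR on which reads were counted has 86 codons. In NARS 131 reads lay there and none on the start codon itself. The NARS stretch is open for 34 codons, with no AUG, and held 157 of 158 reads of the 5′UTR. The matched 5′UTRs of LARS and NARS, of 52 and 39 codons, are also shorter than those counted, of 94 and 72. WARS differed in annotation: its transcript starts at a downstream AUG, and in 3 longer GENCODE transcripts this AUG lies inside the CDS. It lies 41 codons inside in the transcript that shares the most codons before it. The last 8 codons before it, on which 113 of 116 reads of the 5′UTR fell, are coding and in the same frame in at least 1 of those transcripts. Of 3 GENCODE transcripts that start at this AUG, 1 holds the matched last 51 bases of the 5′UTR.

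The most 5′UTR reads of any synthetase lay in IARS, outside these windows. Of its 884 reads, 770 (368, 222 and 180 over libraries a, b and c) lay on 1 codon 22 codons before the start, and 1 lay in the last 17 codons. Only 1 of 18 GENCODE transcripts with this start codon holds the matched bases, so its sequence is not shown. KARS and GARS, with 5′UTRs too short for the window, had 0 and 1 read there. In 3′UTRs the 33 mRNAs had 54 in-frame reads in all.

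**Figure D5:**
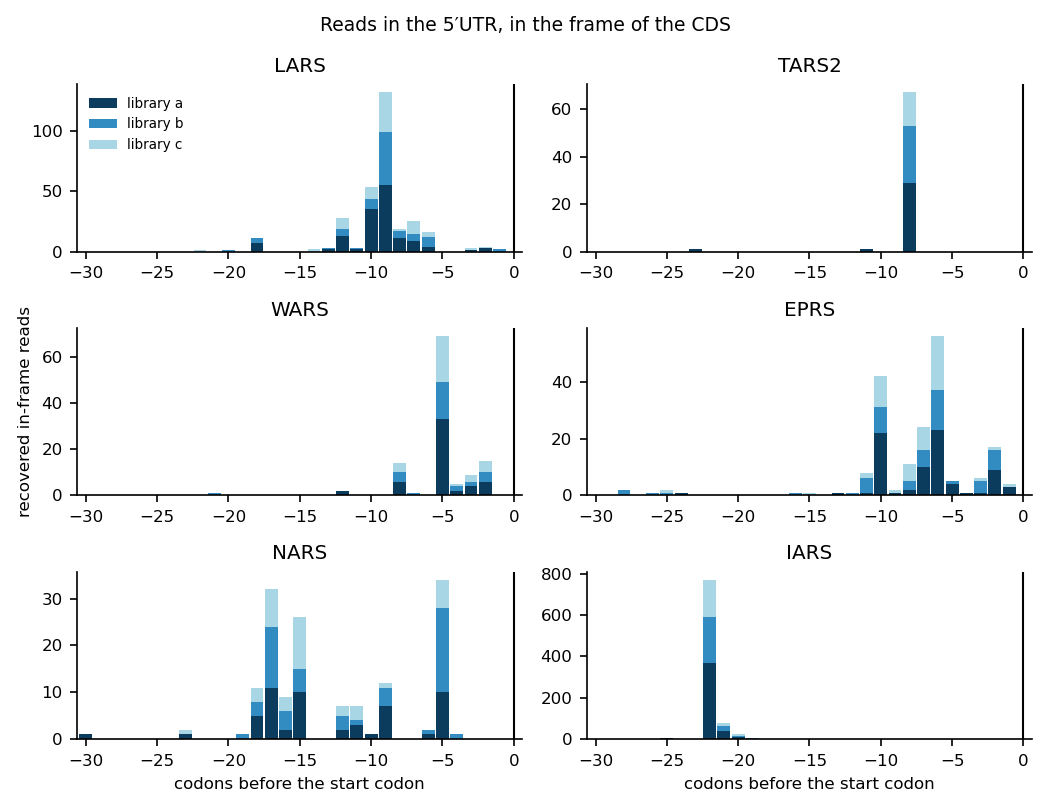
Recovered in-frame reads on the last 30 codons of the 5′UTR of LARS, TARS2, WARS, EPRS, NARS and IARS, counted back from the start codon at 0, with libraries a, b and c stacked. The reads of TARS2 stand on 1 codon (67 reads), as do most of those of IARS (770 reads), and those of LARS, EPRS and NARS spread over several.

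The share of the single most occupied codon ran from 1.21% for EPRS to 9.98% for PARS2, the mRNA with the fewest reads. PARS2, the prolyl enzyme of mitochondria, had 9.98% of its CDS occupancy on codon 420, an AAC, with 48 reads, and this was its highest codon in all 3 libraries. YARS2 had 5.95% on codon 314 and HARS 5.04% on codon 400. SARS2 had 4.90% on codon 32 and RARS2 4.86% on codon 337, a UAU that was its highest in all 3 libraries. The highest codon was the same in all 3 libraries for 14 of the 33 mRNAs, and the median share was 3.23% beside 4.86% over all mRNAs. The synthetase CDSs are longer, with a median of 579 codons beside 448, and the part of length and depth was not tested. QARS alone had its highest codon at the start, with 616 reads on the AUG, 3.21% of its CDS. The stretches around the highest codon of PARS2 and RARS2 are printed with that codon in capitals.
PARS2, chr1:55223560-55223589, minus strand: ctgaccatcggaAACagactgaaagatgcc
RARS2, chr6:88231191-88231220, minus strand: cgaatggacaagTATaattttgatacaatg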

How the data were processed

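According to the methods, lysates were made in triplicate after cycloheximide, RPFs of 28 to 30 nt were placed on hg19 transcripts with an offset of 13 nt, and one transcript per gene was used. The submitters' processing notes name cutadapt 1.16, Bowtie 1.1.2, TopHat2 2.1.1 and HTSeq 0.9.1. Translational efficiency was deposited as a ratio, RPF over total RNA, on a linear scale, by a formula not stated. Occupancy is another quantity, which the authors made by normalizing in-frame RPFs for library size and dividing by TPM, with replicates combined.

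Each occupancy value was split into whole reads of 3 libraries, exactly for all 31231 values of the synthetase mRNAs. Intervals cover counting error only. Efficiency was tested with limma 3.58.1 (R 4.3.3) on log2(value + 0.01) against the median, with Benjamini-Hochberg adjustment at FDR 0.05 over 8121 genes. Folds between pairs, subunits and compartments are on this scale, and ranges over a list are ratios of mean values. Both steps were first tested on simulated data. RPF and total RNA of one number come from 1 lysate, so pairing is part of the ratio. No 2 replicates held the same value for any gene.

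Named genes were all members in either table, with the 3 highest and lowest per compartment in efficiency, the 5 highest and lowest in occupancy and window ratio, the complex, all pairs and the partner list. The members and lists were chosen with earlier results of these data known. Transcripts were matched to GENCODE by symbol and CDS length, which gave 32 of 33 (not HARS). Alternatives are in the closing section.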

Additional observations from a re-analysis of the deposited data

How the results depend on the processing

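The number of synthetases called higher or lower stayed within 1.5 times under each other pseudocount, none, the replicate block, a read minimum of 100, the mean as reference, limma's trend and the leaving out of each replicate. The replicate block changed no call. With the mean of all genes as reference, PARS2 turned to -0.071 and WARS2 to -0.12 on the log2 scale, and leaving out each replicate moved PARS2 between -0.052 (without replicate 3) and 0.17, all uncalled, while IARS was called lower at -0.18 (limma adjusted p = 0.015). The compartments kept their order under every alternative run. The first window of the CDS exceeded the last in 15 mRNAs, but in 12 with 50 codons and in 12 with capped values. With 100 codons the number was 16, and without 5 codons at each end 14. The share of all mRNAs under these settings is not given. Without the 5 codons next to the start codon, 14 rather than 9 mRNAs exceeded the median of all mRNAs at the end of the 5′UTR. With values capped at the 95th percentile, the codons before the second AUG of GARS stood at 5.21% of the rest rather than 4.35%. The cause was not tested. Depth limits PARS2, FARS2 and SARS2 most.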

Other observations

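Each synthetase mRNA was also read for the codons of the amino acid its own enzyme charges, with 5 codons left out at each end of the CDS. Relative to the mean of its CDS, occupancy on these codons was above the median of the same amino acid in the other 31 matched mRNAs in 21 of 33 cases and below it in 12. The 33 cases pool both compartments. A mitochondrial enzyme acts in another compartment than the cytosolic ribosomes that read its mRNA. QARS was the lowest of all mRNAs compared for its amino acid: its 27 glutamine codons stood at 0.184 ± 0.071 (SD, n = 3 libraries) of the CDS mean, on 123 reads, beside a median of 0.707 elsewhere. TARS on threonine codons stood at 0.480 ± 0.042 beside 1.02. LARS on leucine codons stood at 1.44 ± 0.03, above the median elsewhere, and MARS on its 8 methionine codons at 1.79 ± 0.15 beside 0.909. Those 4 are cytosolic, and mitochondrial enzymes reached similar values. SARS2 on serine codons stood at 0.346 ± 0.155 beside 0.788, on 31 reads, and RARS2 on arginine codons at 0.499 ± 0.068 beside 1.01. WARS2 on its 4 tryptophan codons stood at 1.85 ± 0.76 beside 0.886. All of these cases were picked after their values were seen, and no test was made.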
